A study of Mus musculus with 12 samples.

Results

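Serine synthesis, the mitochondrial branch of folate metabolism and proline synthesis were followed through 9 genes of the deposited mouse table, which lists 45777 genes. The genes were taken by symbol and are Phgdh, Psat1 and Psph for serine, Shmt2, Mthfd2, Mthfd1l and Aldh1l2 for mitochondrial folate, and Aldh18a1 and Pycr1 for proline. All 9 passed the filter on low counts in every comparison. The study sequenced RNA from Hepa1-6 cells, an established mouse hepatoma line, and from primary liver sinusoidal endothelial cells (LSECs), the fenestrated endothelium that lines liver capillaries. Each cell type was sequenced after culture by itself (mono-culture) and after co-culture with the other, with 3 libraries in each of the 4 groups. For co-culture 100000 Hepa1-6 cells were placed in a 3 µm porous insert above 500000 LSECs in 12-well plates, so that the cells shared medium without touching. All 4 groups were, per the labels, switched to DMEM with 2% serum and antibiotics for 24 h. The strain, age and number of the mice that gave the LSECs are not given in the sources used here. Nothing in the labels says that the 3 libraries of a group came from separate cultures or animals, so p-values measure the spread between libraries, which may be technical.

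The serine pathway turns the glycolytic intermediate 3-phosphoglycerate into serine in the cytosol. In mitochondria serine gives a carbon unit to tetrahydrofolate, leaving glycine, and the unit can leave as formate for purine and thymidylate synthesis or be oxidised to carbon dioxide. Proline is made in mitochondria from glutamate by way of pyrroline-5-carboxylate. Many of these genes are known targets of ATF4, the transcription factor of the amino acid and endoplasmic reticulum stress response, and several of them are known for high expression in proliferating and tumour cells.

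Total counts ran from 32761492 to 48870698 per library. Most defining markers matched the labels. All 11 endothelial markers reached 1 CPM (a count scaled to library size) in the LSEC groups, where they summed to 8659 to 13886 CPM, against 27.6 to 39.5 CPM in the Hepa1-6 libraries, where no count of Cdh5 or Tek was found. The 10 hepatoma and hepatocyte markers summed to 3588 to 4497 CPM in the Hepa1-6 libraries and to 11.2 to 28.1 CPM in the LSEC libraries. Alb and Afp made up most of the Hepa1-6 sum, and 7 of the 10 reached 1 CPM there. The other 3 were higher in the LSEC libraries, with group means of 0.981 and 1.30 CPM for Ahsg, 0.677 and 1.19 CPM for Ttr and 0.502 and 0.80 CPM for Serpina1a. In Hepa1-6 cells Ahsg had no count, and the larger group means of Ttr and Serpina1a were 0.145 and 0.0641 CPM. The LSEC libraries also held all 12 macrophage markers at 1 CPM or more, summing to 1984 to 3108 CPM in mono-culture and 3207 to 4279 CPM in co-culture. Both LSEC libraries numbered 1 stood apart from numbers 2 and 3. Against the mean of numbers 2 and 3 of the same group, they were shifted on the log2 scale in opposite directions by gene length. The median shift was 0.69 (mono-culture) and 0.55 (co-culture) for genes in the lowest quartile of length. For genes in the highest quartile it was -0.62 and -0.54. For this reason LSEC results of the 9 genes are also given without them. In such bulk samples, fewer cells of a type and less RNA per cell cannot be told apart.

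Transcripts of the 9 genes were far more abundant in the hepatoma line, and the make-up differed. On the length-normalised TPM scale the 9 genes summed to 1747 to 1811 TPM in the mono-cultured Hepa1-6 libraries and to 271 to 319 TPM in the mono-cultured LSEC libraries. After co-culture the sums were 1599 to 1602 TPM in Hepa1-6 cells and 154 to 158 TPM in LSECs, so that within each cell type the groups did not overlap. Phgdh, Psat1 and Shmt2 headed the order in Hepa1-6 cells, with mean levels in mono-culture of 744 ± 26.5, 413 ± 5.17 and 351 ± 4.30 TPM (SD, n = 3). Mthfd2 (107 TPM), Aldh18a1 (63.4 TPM), Psph (42.5 TPM), Mthfd1l (34.5 TPM), Pycr1 (11.9 TPM) and Aldh1l2 (1.79 TPM) followed as means. No neighbours in this order overlapped between libraries, and the order was the same after co-culture.

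In LSECs the order was led by Shmt2, at 115 TPM in mono-culture, and Mthfd2, at 77.0 TPM. Aldh18a1 came next at 32.3 TPM, and its 3 libraries did not overlap those of Psat1. Psat1 (22.6 TPM), Psph (19.1 TPM) and Mthfd1l (18.3 TPM) each overlapped the next in the order, which after Mthfd1l was Phgdh (11.4 TPM). Phgdh did not overlap the gene after it. Pycr1 (3.63 TPM) and Aldh1l2 (1.65 TPM) closed it. After co-culture Aldh18a1, Psat1, Mthfd1l and Psph overlapped as neighbours. The 3 serine genes together thus made up the greater part of the 9 genes' transcripts in Hepa1-6 cells and a small part in LSECs. Phgdh accounted for 42.1% of the summed TPM in mono-cultured Hepa1-6 cells and 3.84% in mono-cultured LSECs, while Mthfd2 accounted for 6.08% and 25.6%.

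**Figure D1:**
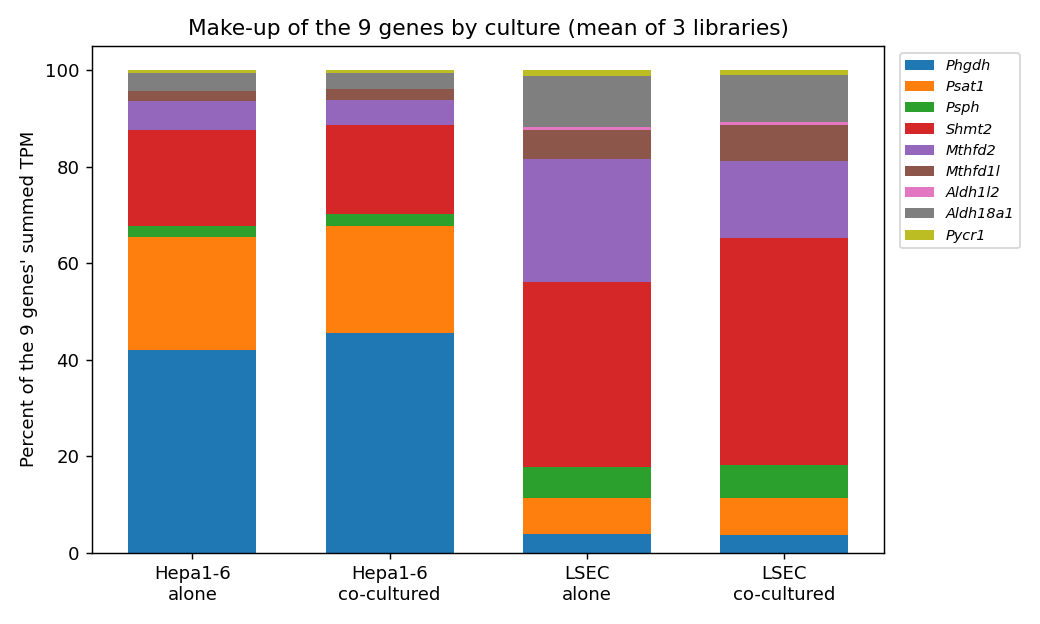
Share of each of the 9 genes in their summed TPM (vertical axis, percent, mean of 3 libraries) for the 4 cultures. Phgdh takes 42.1% of the bar in mono-cultured Hepa1-6 cells and 3.84% in mono-cultured LSECs, and the share of Mthfd2 in LSECs is 25.6% in mono-culture and 15.8% in co-culture.

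Between the cell types, 8 of the 9 genes were lower in LSECs than in Hepa1-6 cells in mono-culture, and the same 8 in co-culture. Of all genes tested, 32.8% were lower in LSECs in mono-culture and 34.9% in co-culture. Without LSEC replicate 1 the counts were 8 and 9, where 42.3% and 42.6% of all genes were lower. The serine pathway differed most at its first 2 steps. Phgdh, the dehydrogenase that commits 3-phosphoglycerate to serine, stood at 669, 668 and 706 CPM in the mono-cultured Hepa1-6 libraries and at 14.1, 8.88 and 8.61 CPM in the mono-cultured LSEC libraries. That is 64.1-fold lower, a log2 difference of -6.0 ± 0.25 (SE; edgeR, adjusted p = 6.83e-06). Psat1, the aminotransferase of the second step, was 18.7-fold lower (log2 difference -4.22 ± 0.11; edgeR, adjusted p = 2.06e-06), and Psph, the phosphatase that releases serine, was 2.19-fold lower (log2 difference -1.13 ± 0.20; edgeR, adjusted p = 0.0023). Without LSEC replicate 1 the log2 differences were -6.29 ± 0.05 for Phgdh, -4.21 ± 0.04 for Psat1 and -1.40 ± 0.07 for Psph. The low Phgdh levels of the mono-cultured LSEC libraries stood beside 11.2 to 22.7 CPM of summed hepatoma and hepatocyte markers. What part RNA of hepatoma cells or hepatocytes had in these levels was not tested.

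The mitochondrial and proline genes differed less between the cell types than Phgdh and Psat1 did. Shmt2, which transfers the carbon unit from serine to mitochondrial folate, was 3.07-fold lower in mono-cultured LSECs than in mono-cultured Hepa1-6 cells (log2 difference -1.62 ± 0.12; edgeR, adjusted p = 5.33e-05). Mthfd2, which oxidises that unit, was 1.41-fold lower (-0.49 ± 0.11; edgeR, adjusted p = 0.00676), and Mthfd1l, which releases it as formate, was 1.96-fold lower (-0.97 ± 0.14; edgeR, adjusted p = 9.15e-04). Aldh18a1, which makes pyrroline-5-carboxylate from glutamate, and Pycr1, which reduces it to proline, were 2.18-fold and 3.28-fold lower. Without LSEC replicate 1 the log2 differences were -1.75 ± 0.03 for Shmt2, -0.60 ± 0.05 for Mthfd2, -0.87 ± 0.05 for Mthfd1l, -1.04 ± 0.04 for Aldh18a1 and -1.77 ± 0.13 for Pycr1. Aldh1l2, which oxidises the carbon unit to carbon dioxide, was the exception, with a log2 difference of -0.22 (95% interval -1.15 to 0.71; edgeR, adjusted p = 0.633). Its LSEC libraries ran from 2.19 CPM in replicate 1 to 6.03 CPM and overlapped the 4.67 to 6.20 CPM of the Hepa1-6 libraries, and without replicate 1 the difference was 0.09 ± 0.16 (edgeR, adjusted p = 0.589). After co-culture the difference in Mthfd2 was 3.37-fold (log2 difference -1.75 ± 0.13; edgeR, adjusted p = 3.00e-05) and that in Phgdh 123-fold (-6.94 ± 0.43; edgeR, adjusted p = 1.27e-05), and without LSEC replicate 1 the log2 differences were -1.91 ± 0.06 and -7.48 ± 0.10. Aldh1l2 stood at a log2 difference of -0.74 ± 0.35 after co-culture (edgeR, adjusted p = 0.094), and at -0.43 ± 0.17 without LSEC replicate 1 (edgeR, adjusted p = 0.0334).

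**Figure D2:**
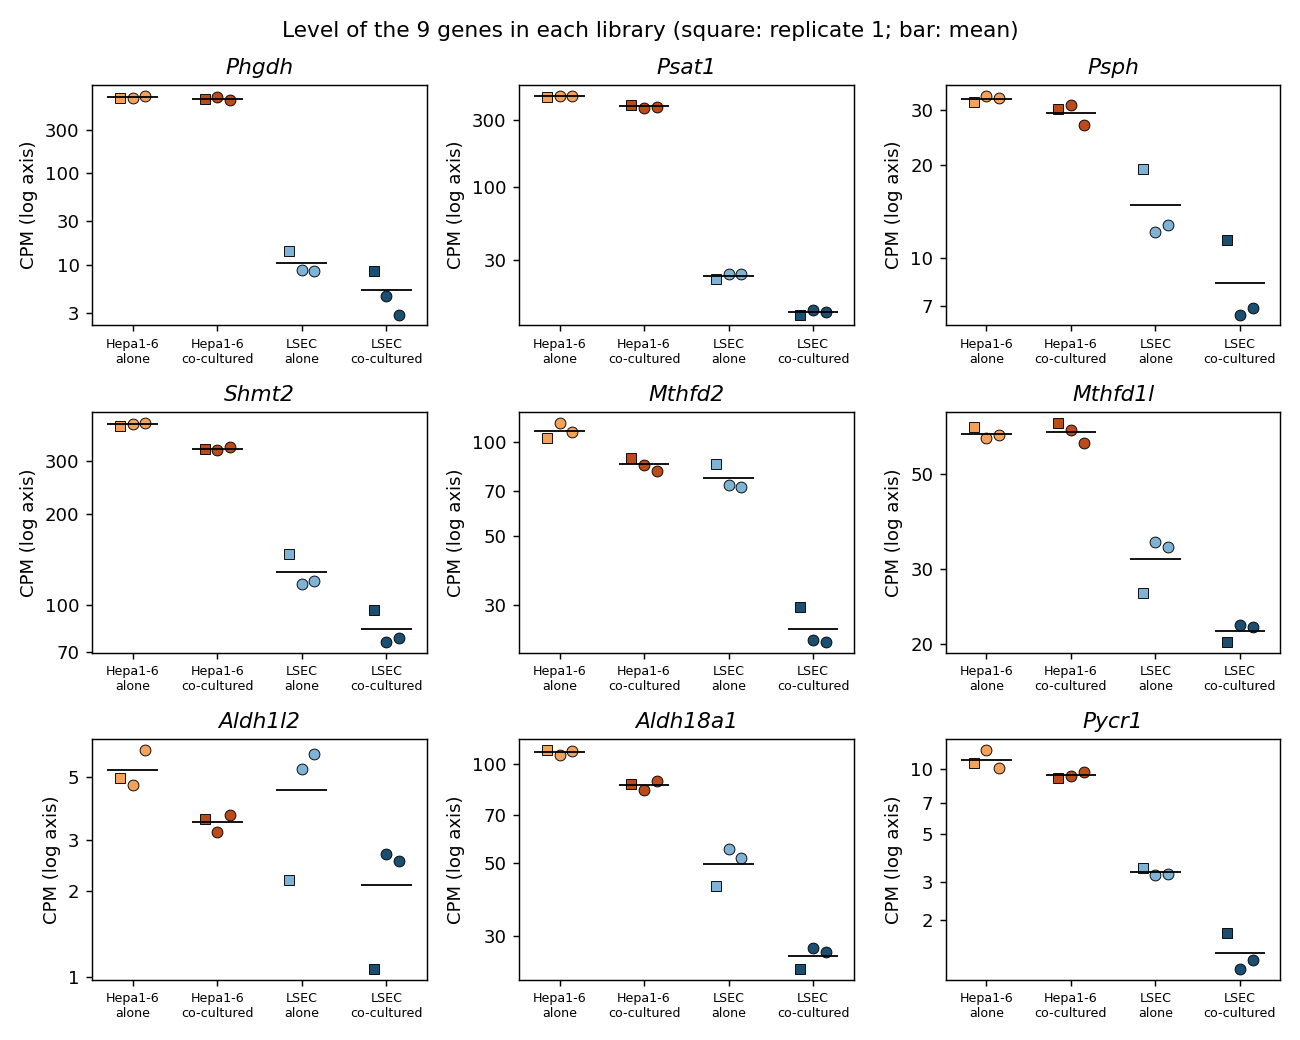
TMM-scaled level of each gene in every library (vertical axis, CPM, log scale; squares are replicate 1, circles replicates 2 and 3, bars group means) for Hepa1-6 cells and LSECs in mono- and co-culture. Co-cultured LSECs sit lowest in 8 panels without overlap with mono-cultured LSECs, and in the panel of Aldh1l2 replicate 1 lies below replicates 2 and 3 within each LSEC group.

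In Hepa1-6 cells co-cultured with LSECs, 5 of the 9 genes fell and none rose. Of 14796 genes tested, 7.03% were lower and 8.5% higher. The changes were small, between 1.18-fold and 1.52-fold. The 5 genes were Psat1, Shmt2, Mthfd2, Aldh1l2 and Aldh18a1, and the same 5 passed in a fit with the replicate number as a block, where 8.08% of all genes were lower.

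Among the serine genes, Psat1 read 433, 440 and 443 CPM in mono-culture and 382, 366 and 372 CPM in co-culture. All co-cultured libraries lay below all mono-cultured ones, and the log2 change was -0.23 ± 0.03 (edgeR, adjusted p = 9.69e-07), a fall of 14.9%. Phgdh did not pass and its libraries overlapped, at 668 to 706 CPM against 635 to 683 CPM. The log2 change was -0.05, with a 95% interval from -0.11 to 0.0061 (edgeR, adjusted p = 0.246). Psph stood at 31.8 to 33.4 CPM in mono-culture and 26.8 to 31.3 CPM in co-culture, without overlap, and at a log2 change of -0.15 ± 0.06 it missed the threshold (edgeR, adjusted p = 0.10).

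Of the mitochondrial folate genes, Shmt2 fell from 391, 395 and 399 CPM to 327, 325 and 332 CPM, a log2 change of -0.27 ± 0.02 (edgeR, adjusted p = 6.35e-08). Mthfd2 fell from 103, 115 and 108 CPM to 88.9, 84.9 and 81.1 CPM (log2 change -0.36 ± 0.04; edgeR, adjusted p = 1.96e-06). Every co-cultured library of both genes was below every mono-cultured one. Mthfd1l, the step after Mthfd2, read 64.4, 60.8 and 61.6 CPM in mono-culture and 65.9, 63.3 and 59.2 CPM in co-culture. Its log2 change was 0.01, with a 95% interval from -0.08 to 0.11 (edgeR, adjusted p = 0.902). Aldh1l2 had the largest change and the lowest level, at 4.95, 4.67 and 6.20 CPM in mono-culture against 3.56, 3.21 and 3.67 CPM in co-culture. The log2 change was -0.60 ± 0.14 (edgeR, adjusted p = 0.00413), and the call was lost on the log2(TPM + 1) scale (limma, adjusted p = 0.0762).

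The proline genes showed 1 call. Aldh18a1 fell from 111, 107 and 110 CPM to 87.3, 83.3 and 88.9 CPM, a log2 change of -0.33 ± 0.04 (edgeR, adjusted p = 6.16e-07). Pycr1 read 10.7, 12.2 and 10.1 CPM in mono-culture and 9.10, 9.27 and 9.70 CPM in co-culture. The groups did not overlap, yet at a log2 change of -0.23 ± 0.09 Pycr1 missed the threshold (edgeR, adjusted p = 0.0973). The mono- and co-cultured libraries were thus apart for 7 of the 9 genes, all lower in co-culture, where 14.9% of all genes tested were lower without overlap. Among 16 proliferation genes in the same libraries only Mki67 passed, with a rise of 0.11 ± 0.03 on the log2 scale (edgeR, adjusted p = 0.00781). The summed endothelial markers in these libraries were 27.6 to 30.4 CPM in mono-culture and 37.7 to 39.5 CPM in co-culture. Of the 11 markers only Stab1 passed the test. It made up most of both sums, with group means of 26.7 CPM in mono-culture and 36.8 CPM in co-culture. Cdh5, Tek, Robo4, Lyve1 and Clec4g had no count in either group. The part of these markers in the results was not tested.

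In LSECs the changes on co-culture with Hepa1-6 cells were larger, and every one of the 9 genes had a lower mean. With no block, 4 of the 9 fell, Psat1, Mthfd2, Aldh18a1 and Pycr1, where 0.911% of 15256 genes were lower. With the replicate number as a block all 9 fell, and so did all 9 when both libraries numbered 1 were left out. The share of all genes that were lower was 16.6% in the first of these fits and 17% in the second. Libraries of the 2 groups were apart for 8 of the 9 genes, all but Aldh1l2, and 8.43% of all genes were lower without overlap.

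**Figure D3:**
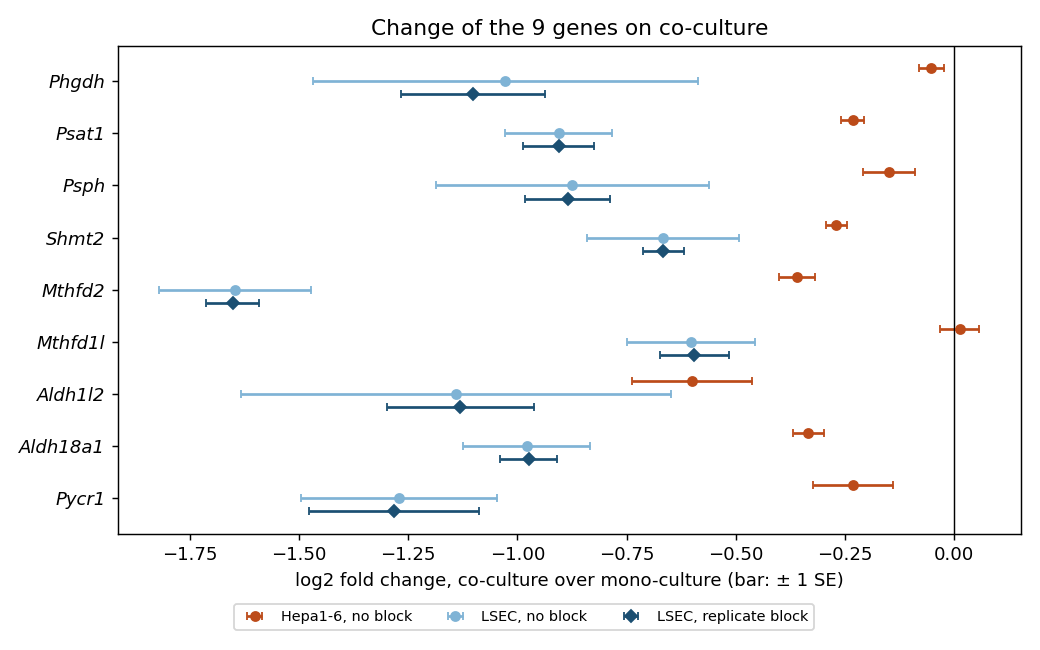
Log2 fold change of each gene on co-culture (horizontal axis, co-culture over mono-culture, bars ± 1 SE) in Hepa1-6 cells and in LSECs, the latter without and with the replicate number as a block. Mthfd2 in LSECs lies farthest to the left at -1.65, and Mthfd1l in Hepa1-6 cells lies at 0.01.

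The mitochondrial folate gene Mthfd2 changed most. It read 85.1, 73.0 and 72.1 CPM in mono-cultured LSECs and 29.7, 23.2 and 22.9 CPM in co-cultured LSECs. Every co-cultured library lay far below every mono-cultured one, and the log2 change was -1.65 ± 0.17, or 3.13-fold (edgeR, adjusted p = 0.00665; with the block, adjusted p = 1.83e-07). Shmt2 stood at 147, 117 and 120 CPM against 96.5, 75.5 and 77.6 CPM. The groups were apart, and the log2 change of -0.67 ± 0.17 passed with the block (edgeR, adjusted p = 9.85e-06) and not without it (edgeR, adjusted p = 0.131). Mthfd1l read 26.4, 34.8 and 33.7 CPM against 20.2, 22.1 and 21.9 CPM, a log2 change of -0.60 ± 0.15 (edgeR, adjusted p = 0.104; with the block, adjusted p = 4.85e-04). Here replicate 1 was the lowest library of each group, whereas for Shmt2 it was the highest. Without replicate 1 the log2 changes were -1.69 ± 0.06 for Mthfd2, -0.66 ± 0.04 for Shmt2 and -0.67 ± 0.07 for Mthfd1l (edgeR, adjusted p = 1.79e-11, 2.31e-08 and 5.83e-06).

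Aldh1l2 showed how far replicate 1 moved the spread. Its levels were 2.19, 5.32 and 6.03 CPM in mono-culture and 1.07, 2.69 and 2.55 CPM in co-culture, so the groups overlapped through the mono-cultured replicate 1. Within each replicate number the co-cultured library was the lower one. The log2 change was -1.14 ± 0.49 with no block (edgeR, adjusted p = 0.385), -1.13 ± 0.17 with it (edgeR, adjusted p = 0.00101) and -1.14 ± 0.18 without replicate 1 (edgeR, adjusted p = 1.52e-04). With a longest transcript of 6030 bases it is the longest of the 9, in the upper length quartile that begins at 4913 bases.

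Of the serine genes in LSECs, Psat1 fell from 22.0, 23.8 and 24.1 CPM to 12.3, 13.3 and 12.8 CPM, a log2 change of -0.91 ± 0.12 (edgeR, adjusted p = 0.0151; with the block, adjusted p = 4.68e-05). Phgdh stood at 14.1, 8.88 and 8.61 CPM against 8.50, 4.57 and 2.87 CPM, with the first value of each group from replicate 1. The log2 change was -1.03 ± 0.44 (edgeR, adjusted p = 0.381; with the block, adjusted p = 9.97e-04). Psph read 19.4, 12.2 and 12.8 CPM against 11.5, 6.57 and 6.90 CPM, for a log2 change of -0.87 ± 0.31 (edgeR, adjusted p = 0.276; with the block, adjusted p = 1.66e-04). For both, replicate 1 was the highest library of each group, and the co-cultured replicate 1 came close to the mono-cultured replicates 2 and 3. Without replicate 1 the log2 changes were -0.91 ± 0.09 for Psat1, -1.26 ± 0.19 for Phgdh and -0.92 ± 0.12 for Psph (edgeR, adjusted p = 1.85e-06, 1.07e-04 and 3.26e-05).

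Both proline genes fell in LSECs. Aldh18a1 went from 42.4, 55.2 and 51.6 CPM to 23.7, 27.4 and 26.7 CPM, with every co-cultured library well below every mono-cultured one. The log2 change was -0.98 ± 0.15 (edgeR, adjusted p = 0.0224; with the block, adjusted p = 7.91e-06). Pycr1 went from 3.48, 3.22 and 3.27 CPM to 1.75, 1.19 and 1.31 CPM, a log2 change of -1.27 ± 0.22 (edgeR, adjusted p = 0.0397; with the block, adjusted p = 0.0011). Without replicate 1 they were -1.01 ± 0.06 for Aldh18a1 and -1.41 ± 0.24 for Pycr1 (edgeR, adjusted p = 1.51e-08 and 2.69e-04). These are 43 to 162 counts per library, and Pycr1 lost its call with no filter on low counts (edgeR, adjusted p = 0.0544). DESeq2 called 6 of the 9, all lower, and called 515 genes lower over the whole table. With single libraries left out, the number that fell ran from 0, without co-cultured replicate 2, to 4, without mono-cultured replicate 1. In these fits 146 and 490 genes passed in either direction. Psat1, Aldh18a1 and Pycr1 each lost the call in most fits with 1 library left out. Mthfd2 lost it without co-cultured replicate 2 or 3 (edgeR, adjusted p = 0.0547 and 0.0518). On the log2(TPM + 1) scale Psat1 and Aldh18a1 lost the call (limma, adjusted p = 0.16 and 0.078) and Shmt2 gained it (limma, adjusted p = 0.0432). At an unadjusted p under 0.05 in edgeR 7 of the 9 were lower with all libraries and 6 without co-cultured replicate 2. The share of all genes at an unadjusted p was not computed. Counts at that threshold, here and for the lists below, therefore have no background. Beside these falls the summed macrophage markers were 1984 to 3108 CPM in mono-culture and 3207 to 4279 CPM in co-culture, with 2 of 12 higher and 2 lower with no block, and 5 higher and 4 lower with it. The 9 stellate cell and fibroblast markers summed to 112 to 142 CPM and 101 to 116 CPM in mono- and co-culture, with 2 higher and 4 lower with the block. Of the 11 endothelial markers 1 was higher with no block, and 9 were higher and 1 lower with it. The part of these markers in the results was not tested.

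Whether co-culture changed a gene more in LSECs than in Hepa1-6 cells was tested as an interaction over all 12 libraries. Psat1, Mthfd2 and Pycr1, 3 of the 9 genes, fell further in LSECs, where 0.951% of 17346 genes did. The log2 change in LSECs minus that in Hepa1-6 cells was -1.25 ± 0.17 for Mthfd2 (edgeR, adjusted p = 0.00245), -1.0 ± 0.22 for Pycr1 (edgeR, adjusted p = 0.0377) and -0.64 ± 0.11 for Psat1 (edgeR, adjusted p = 0.0101). The call of Pycr1 was lost in 10 of 12 fits with 1 library left out (edgeR, adjusted p up to 0.122). That of Psat1 was lost on the log2(TPM + 1) scale (limma, adjusted p = 0.166). The other 6 genes also had negative differences, from -0.36 for Shmt2 to -0.94 for Phgdh, and did not pass. With the replicate block 8 of the 9 passed, where 7.98% of all genes were lower, and the exception was Aldh1l2, at -0.50 ± 0.20 (edgeR, adjusted p = 0.122). Without replicate 1 the same count was 8, from -0.40 ± 0.04 for Shmt2 to -1.33 ± 0.08 for Mthfd2, where 9.95% of all genes were lower. For Mthfd1l, which had no call in Hepa1-6 cells, the difference between the cell types was -0.58 ± 0.16 (edgeR, adjusted p = 0.112; with the block, adjusted p = 0.00183).

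The 4 mitochondrial folate genes have counterpart enzymes, and the ratio of each pair on the TPM scale varied between the cultures. Shmt1 is the cytosolic form of Shmt2. Shmt2 was 2.75 to 2.83 times as abundant in mono-cultured Hepa1-6 cells and 18.6 to 23.5 times as abundant in mono-cultured LSECs. Shmt1 itself was lower in mono-cultured LSECs, with a log2 difference of -4.55 ± 0.14 (edgeR, adjusted p = 2.56e-06), beside -1.62 ± 0.12 for Shmt2. Mthfd2l is a second mitochondrial form of Mthfd2. The ratio of Mthfd2 to Mthfd2l was 24.4, 15.4 and 17.7 in mono-cultured LSECs and 12.7, 4.82 and 4.76 in co-cultured LSECs, without overlap, while in Hepa1-6 cells it was 19.9 to 25.7 and 16.0 to 21.0, with overlap. Mthfd2l did not pass on co-culture in either cell type, with log2 changes of -0.06 ± 0.12 in Hepa1-6 cells (edgeR, adjusted p = 0.802) and -0.06 ± 0.28 in LSECs (edgeR, adjusted p = 0.986). The latter was 0.15 ± 0.16 without replicate 1 (edgeR, adjusted p = 0.533).

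The remaining pairs joined Mthfd1l to Mthfd1, which combines several folate activities in the cytosol, and Aldh1l2 to the cytosolic Aldh1l1. Mthfd1l to Mthfd1 was 0.422 to 0.478 in mono-cultured and 0.307 to 0.338 in co-cultured LSECs, and overlapped between the Hepa1-6 groups at 0.381 to 0.427 and 0.381 to 0.454. Aldh1l1 was near 1 to 2 CPM in every library, so the ratio of Aldh1l2 to it rests on as few as 38 counts and is given in the plot of ratios alone.

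**Figure D4:**
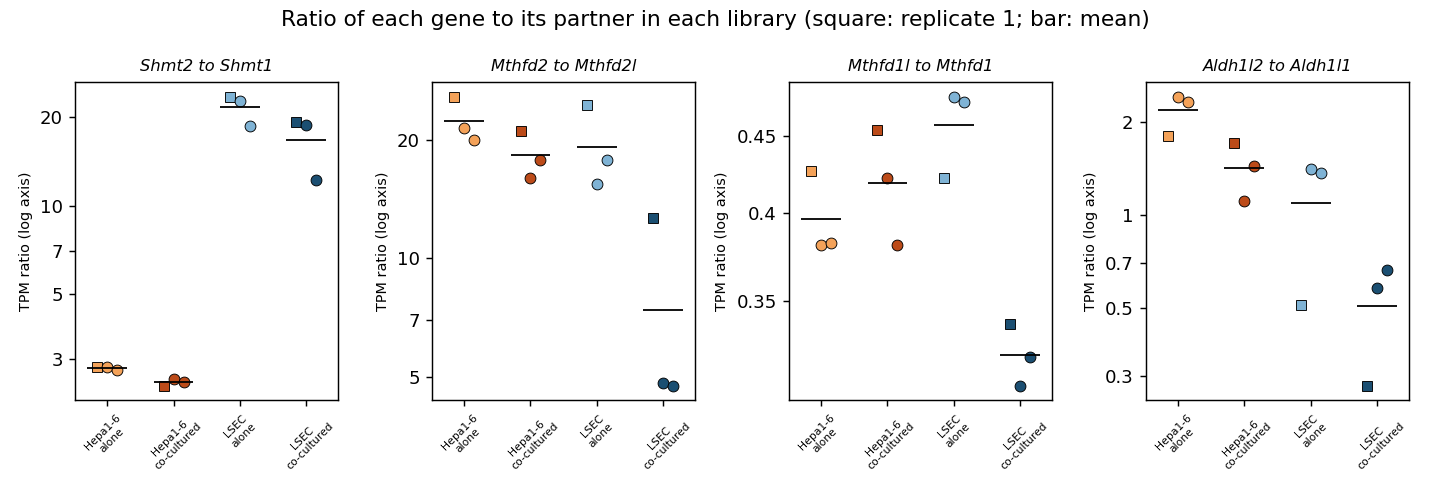
Ratio of each of the 4 mitochondrial folate genes to its counterpart enzyme in every library (vertical axes, ratio of TPM values, log scale; squares are replicate 1, circles replicates 2 and 3, bars group means). The co-cultured LSEC libraries lie lowest for Mthfd2 to Mthfd2l, at 4.76 to 12.7, and for Mthfd1l to Mthfd1, at 0.307 to 0.338, in both cases below all other libraries.

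Neighbouring genes of the same pathways were counted from lists. The background for the counts in Hepa1-6 cells was 7.03% of all genes lower and 8.5% higher. In Hepa1-6 cells 7 of 12 genes of purine and methionine metabolism fell and none rose. These pathways use folate-borne carbon units, though not every gene of the list does so itself. They included Gart (log2 change -0.23 ± 0.03; edgeR, adjusted p = 8.92e-06) and Atic (-0.16 ± 0.03; edgeR, adjusted p = 9.64e-05), which add the carbon units to the purine ring, and Ahcy, which clears S-adenosylhomocysteine (-0.14 ± 0.02; edgeR, adjusted p = 3.16e-04). The median log2 change of the 12 was -0.12, against -0.0043 over all genes tested. Of 14 cytosolic and other folate genes tested, Slc19a1, the reduced folate carrier (-0.26 ± 0.06; edgeR, adjusted p = 0.00393), and Slc25a32, the mitochondrial folate carrier (-0.11 ± 0.03; edgeR, adjusted p = 0.0302), fell and none rose, with a list median of -0.06. Of 12 serine and glycine genes tested 3 fell, Gcat, Gcsh and Shmt1, and 1 rose. The riser was Gldc, the decarboxylase of the glycine cleavage system, at a very low level of 0.29 to 0.73 CPM in mono-culture and 0.99 to 1.5 CPM in co-culture (log2 change 1.33 ± 0.33; edgeR, adjusted p = 0.00787).

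The proline and glutamate list went both ways in Hepa1-6 cells, with 4 of 14 genes higher, 4 lower and a median log2 change of -0.06. Of all genes 8.5% were higher and 7.03% lower. The risers included P4ha1 and P4ha2, subunits of collagen prolyl hydroxylase (log2 changes 0.26 ± 0.04 and 0.36 ± 0.05; edgeR, adjusted p = 2.99e-05 and 2.59e-05), and Aldh4a1, which oxidises proline-derived glutamate semialdehyde (0.33 ± 0.04; edgeR, adjusted p = 1.43e-05). Glul, glutamine synthetase, fell by 0.23 ± 0.03 on the log2 scale (edgeR, adjusted p = 2.69e-06). In LSECs, with no block, none of the 13 tested genes of this list passed in edgeR, 1 was lower and 1 higher at an unadjusted p under 0.05, and DESeq2 called 1 higher. With the block 2 rose and 5 fell, and 3 rose and 4 fell without replicate 1. Of all genes tested, 16.7% rose with the block and 19.4% without replicate 1, beside the 16.6% and 17% that fell. Glul was higher in co-cultured LSECs by a log2 change of 0.47, which passed with the block (edgeR, adjusted p = 1.07e-04) and not without it (edgeR, adjusted p = 0.107). The difference of its change between the cell types was 0.74 ± 0.11 and passed (edgeR, adjusted p = 0.00528), as 1.4% of all genes did in that direction.

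Of the ATF4 list, 9 of 18 genes tested fell and 2 rose in Hepa1-6 cells, with a median log2 change of -0.16. Over all genes 7.03% fell and 8.5% rose. Atf4 itself read 376, 388 and 387 CPM in mono-culture and 340, 336 and 328 CPM in co-culture (log2 change -0.20 ± 0.03; edgeR, adjusted p = 9.15e-06). Atf5, a related factor (-0.24 ± 0.05; edgeR, adjusted p = 8.20e-04), Asns, asparagine synthetase (-0.21 ± 0.03; edgeR, adjusted p = 4.19e-06), and Slc7a5, a large neutral amino acid transporter (-0.33 ± 0.03; edgeR, adjusted p = 2.25e-07), also fell. Ddit3, the stress factor CHOP, did not pass (-0.16 ± 0.09; edgeR, adjusted p = 0.252), and Vldlr, a lipoprotein receptor, rose by 0.38 ± 0.06 (edgeR, adjusted p = 2.18e-04).

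In LSECs 5 of the 19 ATF4-list genes fell and 1 rose with no block, and 12 fell and 3 rose with it and also without replicate 1. With no block 0.911% of all genes fell and 2.18% rose. The shares were 16.6% and 16.7% with the block, and 17% and 19.4% without replicate 1. The list's median log2 change was -0.64, against -0.03 over all genes tested. Slc7a11, a cystine transporter of the list that was picked after its values were seen, went the other way. It read 5.19, 9.19 and 10.8 CPM in mono-cultured LSECs and 22.3, 34.2 and 33.8 CPM in co-cultured ones. Atf4 stood at 1054, 748 and 738 CPM in mono-culture against 457, 357 and 350 CPM in co-culture, a clear separation in every library. Its log2 change of -1.17 ± 0.22 missed the threshold with no block (edgeR, adjusted p = 0.0507) and passed with it (edgeR, adjusted p = 3.99e-07). Atf5 fell from 202, 149 and 146 CPM to 51.4, 37.0 and 36.1 CPM (log2 change -2.04 ± 0.23; edgeR, adjusted p = 0.00876), and Asns, Slc7a5 and Chac1, which degrades glutathione, fell by 1.47, 1.21 and 1.91 on the log2 scale (edgeR, adjusted p = 0.0126, 0.00967 and 0.0111). Ddit3 had a log2 change of -1.39 ± 0.42 (edgeR, adjusted p = 0.188; with the block, adjusted p = 1.23e-06).

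Over both cell types the co-culture change differed for 6 of the 19 genes of the list by the interaction test, with 5 lower and 1 higher in LSECs. By that test 0.951% of all genes were lower and 1.4% higher. In mono-culture Atf4, Atf5 and Ddit3 were higher in LSECs than in Hepa1-6 cells, by 1.15 ± 0.17, 1.37 ± 0.15 and 2.61 ± 0.33 on the log2 scale (edgeR, adjusted p = 9.93e-04, 2.93e-04 and 5.52e-04), and 13 of the 19 genes of the list were higher, where 37.2% of all genes were. Asns was lower, with a log2 difference of -1.95 ± 0.12 (edgeR, adjusted p = 1.94e-05). All 16 proliferation genes were lower in LSECs in both cultures, with a median log2 difference of -5.17 in mono-culture, against 0.09 over all genes. Of the purine and methionine genes, 10 of 12 were lower in LSECs in mono-culture and 11 of 12 in co-culture. Over all genes 32.8% and 34.9% were lower.

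Transcripts of a serine carrier differed between the cells. Sfxn1, the serine carrier of the inner mitochondrial membrane, had 0 to 5 counts in every Hepa1-6 library and 2865 to 4007 counts in every LSEC library, where it stood at 80.8 to 86.0 CPM. Sfxn3, a paralog with the same activity that was picked after its values were seen, stood at 61.0 to 69.2 CPM in the Hepa1-6 libraries and at 79.2 to 100 CPM in the LSEC libraries. Cth and Cbs, the transsulfuration enzymes that use serine to make cysteine, were lower in mono-cultured LSECs, with log2 differences of -4.04 ± 0.42 and -3.57 ± 0.48 (edgeR, adjusted p = 2.30e-04 and 7.32e-04).

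The other lists held few calls in LSECs on co-culture. With no block edgeR called 0 of 11 serine and glycine genes, 0 of 14 folate genes, 0 of 12 purine and methionine genes and 0 of 16 proliferation genes. At an unadjusted p under 0.05 in edgeR 0, 0, 1 and 4 were lower, and DESeq2 called 0, 0, 1 and 1, all lower. With the block 1, 4, 6 and 7 fell, and 1 purine and methionine gene rose. The counts without replicate 1 were 2, 2, 7 and 6 lower, and 1 purine and methionine gene and 1 proliferation gene rose. Of all genes 0.911% fell with no block, 16.6% with the block and 17% without replicate 1. In the same fits 2.18%, 16.7% and 19.4% rose. The serine and glycine counts lie near that background, as does the folate count without replicate 1. The medians of the log2 change were -0.12, -0.13, -0.16 and -0.28, against -0.03 over all genes tested. Between the mono-cultures 3 serine and glycine genes were higher in LSECs and 6 lower, of the folate genes 5 were higher and 6 lower, and of the proline list 2 were higher and 9 lower, beside 37.2% higher and 32.8% lower over all genes. The shares of the 14 folate genes, 5 and 6, lie near that background.

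Outside the 9 genes, the profile over the 4 group means of log2 CPM nearest to their median profile, among 10632 genes with a mean of at least 5 CPM, was that of Slc7a1, a cationic amino acid transporter, at a Euclidean distance of 0.06. Its level was 75.3 to 77.5 TPM in mono-cultured and 62.5 to 68.7 TPM in co-cultured Hepa1-6 cells. In LSECs it was 16.7 to 48.8 TPM in mono-culture and 10.5 to 22.2 TPM in co-culture, with replicate 1 the lowest in both. Ptpn18, Timm8a1, Maoa and Axl followed at distances of 0.15 to 0.22. Of the 9 genes themselves Psph lay nearest to the median profile, at 0.06, and Phgdh farthest, at 5.00.

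Of the deposited transcript TPM values, those of Aldh18a1 are described because its main forms differ inside the coding sequence. The 2 forms shown differ by 6 coding bases at an alternative splice site (GENCODE M21 transcripts, GRCm38, chr19:40574211-40574216, minus strand). The stretch around the site is shown 5′ to 3′ because the forms are told apart by these letters alone, with the extra bases in capitals.
Aldh18a1 longer form: gatcttcaggggGTAAATgtgattagtgtt
Aldh18a1 shorter form: gatcttcagggggtgattagtgtt
The longer form took 55.8%, 61.0% and 77.6% of the Aldh18a1 TPM in mono-cultured Hepa1-6 libraries, in order of size, and 77.9%, 79.2% and 82.0% in co-cultured ones. The groups did not overlap, but their nearest values lay side by side, and no test was run. In LSECs the share was 8.10%, 78.0% and 78.3% in mono-culture and 61.5%, 77.6% and 95.4% in co-culture. The low value belongs to the mono-cultured replicate 1, where 88.2% was placed on another, predicted form of 2578 bases.

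Some counts may be shared with other genes. Aldh18a1 spans a pseudogene, Gm15801, over 2837 bases, with 1491 to 3790 counts of its own per library against 921 to 4954 for Aldh18a1. Pycr1 overlaps the long noncoding RNA LOC115487829 over 2391 bases, with 91 to 456 counts against 43 to 554 for Pycr1. Psph overlaps Cct6a by 88 bases, with 8632 to 30989 counts of Cct6a against 237 to 1513 for Psph. The strand setting of the counting is not given in the sources used here. The values of Aldh18a1, Pycr1 and Psph are uncertain to that degree.

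Because all 9 genes had lower means in co-cultured LSECs, their upstream sequences were searched for short motifs. Only the 6 genes with a match are shown, by the last 110 bases before the annotated start (RefSeq, GRCm38.p6, all on the minus strand). A window from 250 bases before to 50 bases after the start was at hand for 8 of the 9 genes, and Aldh1l2 had none. The windows were searched on both strands for the C/EBP-ATF core TGATGNAA, the cyclic AMP response element TGACGTCA, the E-box CACGTG and the NF-Y box CCAAT, none of which overlapped another. Capitals mark the matches, and a match on the other strand of CCAAT reads ATTGG.
Phgdh, chr3:98339970-98340079: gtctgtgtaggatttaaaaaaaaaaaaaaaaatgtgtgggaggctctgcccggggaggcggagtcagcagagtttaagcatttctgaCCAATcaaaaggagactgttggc
Psat1, chr19:15925060-15925169: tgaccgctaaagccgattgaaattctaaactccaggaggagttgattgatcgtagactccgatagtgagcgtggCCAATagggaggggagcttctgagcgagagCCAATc
Psph, chr5:129787254-129787363: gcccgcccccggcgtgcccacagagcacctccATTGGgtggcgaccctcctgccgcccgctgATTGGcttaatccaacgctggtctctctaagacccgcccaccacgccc
Mthfd2, chr6:83317605-83317714: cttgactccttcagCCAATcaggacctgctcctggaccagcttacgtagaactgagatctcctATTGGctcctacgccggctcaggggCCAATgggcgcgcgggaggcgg
Pycr1, chr11:120643749-120643858: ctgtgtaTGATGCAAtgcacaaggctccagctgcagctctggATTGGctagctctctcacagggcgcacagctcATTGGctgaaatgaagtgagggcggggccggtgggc
Aldh18a1, chr19:40588464-40588573: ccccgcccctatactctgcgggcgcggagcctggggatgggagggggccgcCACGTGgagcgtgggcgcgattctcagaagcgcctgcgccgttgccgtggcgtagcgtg
The NF-Y box was found in the windows of 5 genes, the 3 serine genes, Mthfd2 and Pycr1, and in 37.4% of all 32851 promoter windows. Pycr1 alone held the C/EBP-ATF core, as TGATGCAA 103 bases before the start, which 3.97% of windows hold. The E-box was found in Aldh18a1, at 59 bases before the start, and in 7.15% of windows. TGACGTCA, held by 1.79% of windows, was in none of the 8 genes' windows. Shmt2 and Mthfd1l, whose sequences are not shown, held none of these motifs. These are matches of letters, not measured binding.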

How the data were processed

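RNA was sequenced in 12 libraries as paired ends with a kit that keeps strand, using 1 µg of total RNA and inserts of 200 to 400 bp, per the labels' protocols. Reads were processed with HISAT2 and StringTie on mm10, per the submitters' processing notes, and no versions or strand setting are given in the sources used here. The authors deposited, per the file headers, an estimated count (expected count, already whole), an FPKM value and a TPM value for each gene and library, and TPM and FPKM values for each transcript. In co-culture the first-named cell of a title was taken as the one sequenced. Counts were fitted with edgeR 4.0.16 in R 4.3.3 (filterByExpr, TMM, robust quasi-likelihood test, Benjamini-Hochberg adjusted p under 0.05 over all genes tested). The 4 two-group comparisons used their own 6 libraries and the interaction all 12. SEs were derived from the F statistic, and CPM values use 1 TMM scale over the 12 libraries. TPM was used for levels between genes and FPKM in 1 alternative. Alternatives were DESeq2 1.42.0, limma 3.58.1 on log2(TPM + 1), other size factors, no filter, a 1.5-fold minimum, a replicate block, and libraries left out. Scripts were tested on simulated data.

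Pairing by replicate number was judged by the correlation of deviations from the group means over 17346 genes, with a limit of 0.1. In LSECs it was 0.58, 0.23 and 0.27 for numbers 1 to 3. Numbers 2 and 3 correlated as well with each other (0.28 and 0.24), so only number 1 was seen to pair. Deviations within a group sum to 0, so the shift of number 1 alone can raise the values of the others. Replicate numbers did not pair the Hepa1-6 libraries (-0.01, -0.02 and -0.02). Genes named were the 9 genes, their counterpart enzymes, Atf4, Atf5 and Ddit3, up to 4 genes with the smallest p per list and comparison, and the 5 nearest profiles. Some genes are counted in their lists and not reported here by name. The 9 genes and the lists were chosen with earlier results of these data known. A count of 0 allows up to 3 counts, which is 0.0644 to 0.0875 CPM, covering counting error only. A value of 3 libraries against 3 tested singly cannot reach an exact permutation p below 0.10, so such tests were not run.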

Additional observations from a re-analysis of the deposited data

Results flagged for a closer look

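The co-culture effect differed between the cell types by the interaction test for 3 of the 9 genes. The log2 change on co-culture was lower in LSECs than in Hepa1-6 cells by -1.25 ± 0.17 for Mthfd2 (edgeR, adjusted p = 0.00245), by -1.0 ± 0.22 for Pycr1 (edgeR, adjusted p = 0.0377) and by -0.64 ± 0.11 for Psat1 (edgeR, adjusted p = 0.0101). In each case the 3 co-cultured LSEC libraries lay below the 3 mono-cultured ones. The call of Pycr1 was lost in 10 of 12 fits with 1 library left out (edgeR, adjusted p up to 0.122). It was also lost with no filter on low counts (edgeR, adjusted p = 0.0746). That of Psat1 was lost on the log2(TPM + 1) scale (limma, adjusted p = 0.166).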

How the results depend on the processing

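In Hepa1-6 cells the 5 calls among the 9 genes became 1 with a 1.5-fold minimum, and the genes called (2298) became 255 with it and 1287 with limma on log2(TPM + 1). In LSECs the 4 genes that fell became 9 with the replicate block and 9 without both replicate 1 libraries. All genes called in LSECs (471) became 5082 and 5559 in these fits, and 1301 with DESeq2. For the interaction the 3 calls became 5 with DESeq2, 8 with the block and 8 without replicate 1, and the 408 genes became 1214, 3008 and 3305, with 828 under limma. The block changed no call among the 9 genes in the other comparisons.

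With single libraries left out, calls among the 9 genes ran from 0 to 4 in LSECs and from 2 to 5 for the interaction, and genes called from 146 to 490 and from 216 to 726. The lowest LSEC values came without co-cultured replicate 2. For the interaction 2 calls were left without co-cultured Hepa1-6 replicate 1 and 216 genes without mono-cultured Hepa1-6 replicate 2. The highest of all 4 came without mono-cultured LSEC replicate 1.

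Counterpart ratios from counts per kilobase of the longest transcript moved beyond the replicate SD in each group (mono-cultured and co-cultured Hepa1-6, then LSECs), to 0.475, 0.503, 0.545 and 0.388 for Mthfd1l to Mthfd1.

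No call among the 9 genes changed sign under the alternatives run, and the log2 values below, none of them called, did. Without LSEC replicate 1 the log2 differences were 0.15 for Mthfd2l and 0.0054 for Aldh1l1 on LSEC co-culture, 0.092 for Aldh1l2 between the mono-cultures and 0.028 for Mthfd2l between the co-cultures. The interaction was 0.0058 for Mthfd1 with no filter, and -0.049 (limma) and -0.013 (block) for Mthfd2l. Ranges with 1 library left out were, in Hepa1-6 cells, -0.024 to 0.057 for Mthfd1l and -0.091 to 0.16 for Aldh1l1. They were, on LSEC co-culture, -0.28 to 0.18 for Mthfd2l and -0.53 to 0.0075 for Pycrl. Between the cell types they were -0.50 to 0.092 for Aldh1l2 (mono-culture) and -0.42 to 0.028 for Mthfd2l (co-culture). For the interaction they were -0.19 to 0.28 for Mthfd2l, -0.19 to 0.054 for Aldh1l1, -0.080 to 0.071 for Mthfd1, -0.30 to 0.027 for Shmt1 and -0.44 to 0.069 for Pycrl. The causes were not tested. Aldh1l2, Pycr1 and LSEC Phgdh have the fewest counts, which limits their precision.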
